A study of Homo sapiens with 18 samples.

Results

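The comparison described here is that of 1 dose of IMD-0354, 0.63 µM, at 2 times, 24 h and 48 h, in A375 cells. Members were chosen by their labels alone: the 3 libraries labelled as treated with 0.63 µM for 24 h, the 3 treated for 48 h, and the 3 untreated libraries of each time, 12 of the 18 libraries of the series. The question is which responses were early and transient, which were sustained and which were late, once the change that untreated cells underwent between the same times had been taken away. The labels call the controls untreated and name no vehicle, and say that cells were left overnight after plating before the compound was added. A375 is an established human melanoma line that carries a BRAF mutation, so all groups share 1 line. Whether replicate libraries are from different cultures is not in the labels, and the p-values then measure only the spread between these libraries, which may be technical.

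IMD-0354 is known as an inhibitor of IKKβ, the kinase that marks the inhibitor IκBα for destruction and so releases NF-κB into the nucleus. In many cells that meet a toxic compound, translation is slowed through phosphorylation of eIF2α, which lets the transcription factor ATF4 be made and then DDIT3 (CHOP), while a load of unfolded protein in the endoplasmic reticulum is sensed separately through IRE1 and ATF6, which raise chaperones such as HSPA5. Some of these genes are known to feed back on the response, such as PPP1R15A, which directs dephosphorylation of eIF2α, and TRIB3, which restrains ATF4, so the time of sampling matters for what is seen.

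Levels are TPM, that is, transcript levels scaled to the same total in each library, from 3' end libraries. An effect is the mean log2(TPM + 1) of treated libraries minus that of untreated libraries of the same time, and the difference of effects is the effect at 48 h minus the effect at 24 h. The effects at 24 h and at 48 h share no library. A gene was called when its p-value from limma's moderated test, adjusted by the Benjamini-Hochberg method over all 14936 genes tested, was under 0.05. Each library held between 14647 and 17029 genes above 0. Of the 11 melanoma markers 8 reached 1 TPM in at least 3 libraries, and their summed level was between 1685 and 2373 TPM in the 12 libraries. It was lowest in treated libraries at 48 h, at 1685 to 1773 TPM, and its part in the results was not tested. That sum was mostly VIM and SERPINE2, while the pigment cell genes MLANA, PMEL, TYR and S100B had a median of 0 TPM, and SOX10 was between 8.29 and 34.7 TPM. Of the markers of other cells, endothelial ones summed to at most 0.20 TPM, leukocyte ones to at most 5.54 TPM with PTPRC at 0 in all 12 libraries, and fibroblast ones to at most 13.4 TPM with COL3A1 at 0 in all 12. Keratinocyte markers summed to between 40.0 and 72.1 TPM, nearly all of it KRT10 and SFN, with KRT1, TP63 and IVL at 0. Untreated replicates 2 and 3 at 24 h had the lowest mean correlation with their own group, 0.907 and 0.920, and treated replicate 3 at 24 h the fewest genes above 0. A group of 4 transcripts of chromosome 21 held 18.1% ± 3.23 of all TPM in the untreated libraries at 24 h, 14.2% ± 0.0854 with the compound at 24 h, 23.5% ± 1.05 untreated at 48 h and 23.6% ± 1.11 with the compound at 48 h (SD, n = 3 each).

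At 24 h, 203 genes rose (1.36% of those tested) and 123 fell (0.824%) with 0.63 µM, and 2.18% were called. At 48 h, 291 rose (1.95%) and 849 fell (5.68%), and 7.63% were called. In such bulk RNA, a lower level in each cell and fewer cells that express a gene cannot be told apart. The difference of effects was called for 5 genes, 2 higher (0.0134%) and 3 lower (0.0201%), which is 0.0335% of the genes tested, and without adjustment 1784 genes had p under 0.05. The standard error of a difference of effects had a median of 0.490 over genes, against 0.346 for a single effect, so a difference of effects was estimated less precisely than an effect. The median effect over all genes was 0.0041 at 24 h and -0.15 at 48 h, and the median difference was -0.17. Scaling the libraries by median of ratios, by quantiles or to a common median moved the median difference up by 0.17 to 0.19, to about 0, so list medians are also given relative to the median of all genes. With these 3 scalings the share of 48 h calls that were higher was 49.4%, 47.5% and 42.4%, against 25.5% with the TPM as deposited. The share of 24 h calls that were higher was 62.3% as deposited and 44.0% once the TPM were rescaled without the 4 chromosome 21 transcripts.

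Calls at the 2 times were sorted into classes. Sustained genes, called at both times in the same direction, numbered 135, of which 79 rose and 56 fell, and the difference of effects was called for none of them. Late genes, called at 48 h with a called difference in the same direction and no such call at 24 h, numbered 4. The class of early transient genes held 1 transcript, and COTL1 was called in opposite directions at the 2 times. For the other 189 genes called at 24 h and 1000 called at 48 h, the other time gave no call and the difference was not called, so neither a sustained nor a passing response can be stated for them. Of the 203 genes that rose at 24 h, 172 (84.7%) had an effect above 0 at 48 h, against 38.6% of all genes. Of the 849 that fell at 48 h, 696 (82.0%) had an effect below 0 at 24 h, against 48.9% of all genes, with a median 24 h effect of -0.34. Across the 14936 genes the effects at the 2 times had a Pearson correlation of 0.322 and a Spearman correlation of 0.303, given as a description, since genes are not independent replicates.

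**Figure D1:**
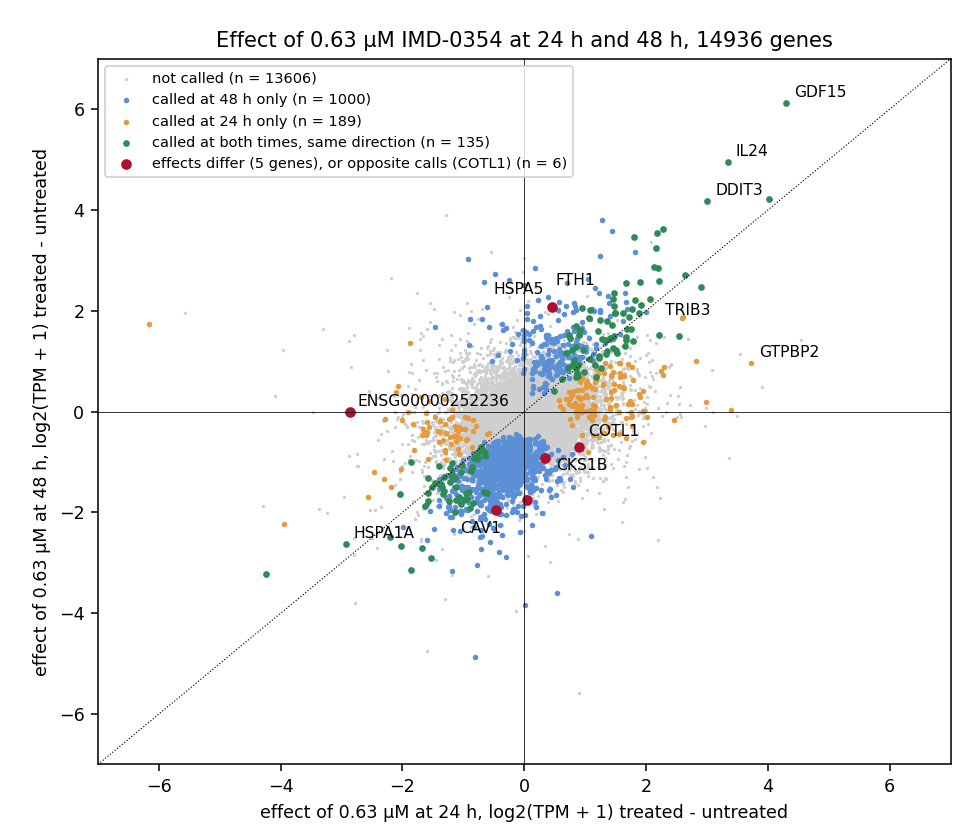
Effect of 0.63 µM IMD-0354 at 24 h (horizontal) and at 48 h (vertical) as log2(TPM + 1), 1 point per gene, coloured by class, with a dotted line where both effects are equal. The 135 sustained genes lie along the line in both directions, and the 1000 genes called at 48 h only lie mostly below 0, where 789 of them are.

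HSPA5 (ENSG00000044574, also called BiP or GRP78) is the main HSP70 chaperone of the endoplasmic reticulum and is known to bind and restrain the stress sensors there. It lies on the minus strand at chr9:125234853-125241330 (GENCODE release 29, GRCh38). Its level was 172, 239.96 and 137 TPM in untreated libraries at 24 h and 220, 240.1 and 273 TPM with the compound. At the later time it was 131, 134 and 103 TPM untreated and 512, 491 and 541 TPM treated. The treated libraries at 48 h lay far above all 9 others, whereas at 24 h the highest untreated library overlapped the treated ones. The effect was 0.45 at 24 h (limma adjusted p = 0.175) and 2.07 at 48 h (adjusted p = 3.47e-06). The difference of effects was 1.62 with a standard error of 0.24 and a 95% interval of 1.11 to 2.13 (limma adjusted p = 0.0217). In treated cells alone HSPA5 rose by 1.08 between the times, and in untreated cells its change of -0.55 was not called (adjusted p = 0.514). The call of the difference was lost when any 1 of 7 libraries was left out, with adjusted p between 0.0524 and 0.097. Those were untreated replicate 1 and treated replicates 1 and 2 at 24 h, and untreated replicates 1 and 3 and treated replicates 2 and 3 at 48 h. It was also lost without the mean-variance trend.

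The 250 bases before the HSPA5 start in RefSeq (GRCh38.p14, minus strand, chr9:125241344-125241593) are shown because they hold 1 copy of the endoplasmic reticulum stress element, the letters CCAAT, 9 bases of any kind and CCACG, which is known to bind ATF6 with NF-Y. Capitals mark it, from 66 to 48 bases before the start:
HSPA5: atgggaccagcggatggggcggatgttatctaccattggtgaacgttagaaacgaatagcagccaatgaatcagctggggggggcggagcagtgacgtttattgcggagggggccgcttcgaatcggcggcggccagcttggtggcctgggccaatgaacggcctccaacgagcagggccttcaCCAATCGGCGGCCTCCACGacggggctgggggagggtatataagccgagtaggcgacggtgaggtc
Searched on both strands, that element was in 13 of the 10093 promoters of tested genes (0.129%) and in 26 of all 35116 promoters of the table. This motif was chosen with the HSPA5 result known, and a match describes letters and not a bound site.

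CAV1 (ENSG00000105974, chr7:116524785-116561184, plus strand), the coat protein of caveolae, was the only protein-coding gene whose called difference held with each of the 12 libraries left out in turn. It had 242, 313 and 282 TPM untreated and 195, 212 and 193 TPM treated at 24 h. The 48 h libraries had 250, 231 and 249 TPM untreated and 60.9, 61.3 and 65.0 TPM treated. Treated libraries lay below untreated ones at both times, with a far wider gap at 48 h. The effect was -0.47 at 24 h (limma adjusted p = 0.0747) and -1.95 at 48 h (adjusted p = 4.02e-07). The difference of effects was -1.48 with a standard error of 0.186 and an interval of -1.87 to -1.08 (limma adjusted p = 0.00465). It was not called without the mean-variance trend or with only the 4 groups in the fit.

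CKS1B (ENSG00000173207, chr1:154974653-154979249, plus strand) encodes a small subunit of cyclin-dependent kinases that is needed for degradation of the inhibitor p27. Its level was 469, 426 and 533 TPM untreated and 656, 629 and 518 TPM treated at 24 h, and 459, 434 and 525 TPM untreated against 284, 261 and 208 TPM treated at 48 h. The treated libraries were mostly above the untreated ones at 24 h, with an overlap, and below all of them at 48 h. The effect was 0.33 at 24 h (limma adjusted p = 0.22) and -0.92 at 48 h (adjusted p = 0.000746), a difference of -1.25 with a standard error of 0.198 (adjusted p = 0.0361). The called difference of CKS1B was lost under each of the 4 other scalings of the libraries and without the mean-variance trend. Leaving out 1 library ended the call of CKS1B for 8 of the 12 libraries (adjusted p up to 0.12), untreated replicate 1 and treated replicates 1 and 2 at 24 h, and all untreated replicates and treated replicates 2 and 3 at 48 h. CKS1B has processed copies elsewhere in the genome with which reads could be shared. The difference of all 5 genes was lost with only the 4 groups in the fit.

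The CKS1B promoter (250 bases before the RefSeq start, GRCh38.p14, plus strand, chr1:154974431-154974680) is shown because it holds the cell cycle homology region TTTGAA, which is known to bind the DREAM and MuvB complexes at mitotic genes, from 30 to 25 bases before the start, in capitals:
CKS1B: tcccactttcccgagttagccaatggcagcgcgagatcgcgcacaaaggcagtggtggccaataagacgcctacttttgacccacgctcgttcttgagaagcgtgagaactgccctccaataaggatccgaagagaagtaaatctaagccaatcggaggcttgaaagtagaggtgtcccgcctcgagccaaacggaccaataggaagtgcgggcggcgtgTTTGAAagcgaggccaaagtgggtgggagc
These 6 letters on either strand were in 840 of the 10093 promoters of tested genes (8.32%) and in 4677 of all 35116 promoters (13.3%). They were in 9 of the 46 promoters of sustained genes that fell (19.6%), in 85 of the 626 of genes that fell at 48 h only (13.6%) and in 11 of the 145 of genes that rose at 48 h only (7.59%), with no test of these shares.

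The single transcript of the early transient class was ENSG00000252236, a small nucleolar RNA gene at chr1:156192063-156192203 on the minus strand. It was at 4.22, 7.13 and 8.05 TPM in untreated libraries at 24 h and is listed at 0 in the 9 other libraries, including the untreated ones at 48 h. The difference of effects, 2.86 on the log2(TPM + 1) scale, therefore rests on the 3 untreated libraries at 24 h, and a gene listed at 0 in a table without counts can be a failed estimate. It is 1 of 2 genes called between untreated 48 h and untreated 24 h libraries, and these libraries select polyadenylated RNA, which this class of RNA mostly lacks.

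Genes of the integrated stress response were among the sustained ones. DDIT3, the transcription factor CHOP, had 18.4, 14.01 and 12.5 TPM untreated and 91.9, 83.7 and 256 TPM treated at 24 h. The later untreated libraries had 10.8, 15.8 and 10.0 TPM and the treated ones 218, 184 and 323 TPM. The groups did not overlap at either time, and treated replicate 3 was the highest at both. Its effect was 3.01 at 24 h (limma adjusted p = 0.000407) and 4.18 at 48 h (adjusted p = 4.03e-06), and the difference of 1.177 with an interval of 0.11 to 2.24 was not called (adjusted p = 0.363). The pseudokinase TRIB3, which restrains ATF4, was close to level. It had 16.8, 9.91 and 15.4 TPM untreated and 52.6, 63.01 and 65.9 TPM treated at 24 h, then 16.6, 15.6 and 9.89 TPM untreated and 65.6, 71.7 and 67.4 TPM treated at 48 h. The effects were 2.06 and 2.23, and the difference was 0.18 with an interval of -0.49 to 0.84, and at both times no treated library overlapped an untreated one. PPP1R15A (GADD34), which directs the phosphatase to eIF2α, rose by 2.20 at 24 h (limma adjusted p = 1.84e-05) and 2.85 at 48 h (adjusted p = 1.91e-07). Its treated libraries had 80.5, 83.5 and 121 TPM at 24 h and 136, 139 and 113 TPM at 48 h, against 15.4 to 23.0 TPM in the 6 untreated ones. The sensor of leucine and partner of GATOR2, SESN2, rose by 2.13 and 2.88, and STC2, a secreted glycoprotein, by 1.82 and 2.22. These 5 genes kept both calls with each single library left out.

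The PPP1R15A promoter (250 bases before the RefSeq start, GRCh38.p14, plus strand, chr19:48872171-48872420) is shown because it holds 1 whole cyclic AMP response element, TGACGTCA, the site of the CREB and ATF family, in capitals from 58 to 51 bases before the start:
PPP1R15A: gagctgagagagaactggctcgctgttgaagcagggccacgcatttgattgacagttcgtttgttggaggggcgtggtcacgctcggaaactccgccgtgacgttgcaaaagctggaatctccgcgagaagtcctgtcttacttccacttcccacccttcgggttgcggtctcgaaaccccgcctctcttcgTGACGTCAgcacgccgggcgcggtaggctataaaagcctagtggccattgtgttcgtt
That element was in 3 of the 54 promoters of sustained genes that rose (5.56%) and in 301 of the 10093 of all genes tested (2.98%). The composite element of ATF4 and C/EBP factors, TGATGNAAN on either strand, was in 4 of the 54 (7.41%) and in 144 of the 10093 (1.43%). Its position was looked up in only a part of the genes named here, so others of them can hold it too. It was found in ASNS as TGATGAAAC from 68 to 60 bases before the start, where it overlaps a heat shock element unit (GAANNTTC). As GTTGCATCA, its other strand, it was found in CHAC1 from 210 to 202 and in HERPUD1 from 177 to 169 bases before the start. In ATF3, which is not of the sustained class, it was TGATGGAAG, from 191 to 183 bases before the start. The window of DDIT3, TRIB3, GDF15, IL24 and CAV1 held none of the motifs searched, and FTH1 had no entry. Only 1 RefSeq start per gene was searched, so other starts of these genes can differ. The windows of TRIB3, DDIT3, GDF15 and CHAC1 lie inside the GENCODE spans of these genes. That of TRIB3 is chr20:381045-381294, in a span of chr20:362835-397559.

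GDF15, a secreted cytokine that acts on appetite and is made by stressed cells, had the largest sustained effect. Its level was 2.90, 2.54 and 5.96 TPM untreated and 43.7, 57.04 and 284 TPM treated at 24 h, and 1.35, 2.14 and 4.44 TPM untreated and 214, 206 and 303 TPM treated at 48 h. Treated replicate 3 was far above the other treated libraries at 24 h, and at 48 h the treated libraries were closer together. Its effect was 4.30 at 24 h and 6.12 at 48 h, and the difference of 1.82 with an interval of 0.09 to 3.54 was not called (limma adjusted p = 0.391). IL24, a cytokine of the IL-10 family first described in melanoma cells, rose by 3.34 and 4.95. S100P, a calcium-binding protein, rose by 4.02 and 4.22, and its 24 h call was lost without any 1 of 3 libraries, untreated replicates 2 and 3 and treated replicate 3 at 24 h (adjusted p up to 0.143). LURAP1L rose by 2.28 and 3.63. CHAC1, which degrades glutathione, rose by 2.90 at 24 h and 2.46 at 48 h, and the first call was lost without treated replicate 1 or 3 at 24 h (adjusted p up to 0.0801) and the second without untreated replicate 3 or treated replicate 2 at 48 h (up to 0.0552). ASNS, asparagine synthetase, rose by 1.498 and 1.22, and lost the 24 h call without treated replicate 3 at 24 h (adjusted p = 0.0801) and the 48 h call without untreated replicate 3 at 48 h (adjusted p = 0.0557). Effects of CHAC1 and ASNS were thus a little smaller at 48 h and those of GDF15, IL24 and LURAP1L larger, with no called difference in either direction.

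Of the 39 measured ATF4 and CHOP targets, 16 rose at 24 h and 19 at 48 h, against 1.36% and 1.95% of all genes, and none fell. Of these, 13 were sustained, a class that held 135 of all 14936 genes. The list's median effect was 1.01 at 24 h and 0.88 at 48 h, against 0.0041 and -0.15 over all genes. Its median difference of effects was -0.11, which was 0.06 above that of all genes and turned positive under median-of-ratios, quantile and median-centred scaling, so the list as a whole had no direction over time. Of the regulators themselves, ATF4 and ATF3 were called at 48 h alone. ATF4 had an effect of 0.39 at 24 h (limma adjusted p = 0.222) and rose by 0.70 at 48 h (adjusted p = 0.0149), and that call was lost without untreated replicate 3 or treated replicate 3 at 48 h (up to 0.0807). ATF3, another stress-induced transcription factor of this family, had 10.8, 11.1 and 12.2 TPM untreated and 15.04, 13.8 and 7.65 TPM treated at 24 h, which overlap. At 48 h it had 5.82, 6.13 and 7.35 TPM untreated and 32.04, 18.1 and 36.3 TPM treated, which do not. The effect of ATF3 was 0.04 at 24 h and 1.95 at 48 h (limma adjusted p = 0.00479), and the difference of 1.91 with an interval of 0.77 to 3.05 was not called (adjusted p = 0.164).

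The other arm of the response is that of the endoplasmic reticulum. Of 22 measured genes of its unfolded protein response, 2 rose at 24 h and 5 at 48 h, against 1.36% and 1.95% of all genes, and none fell. The 2 were HERPUD1, which takes part in degradation of misfolded membrane and secretory proteins, and the transcription factor XBP1. HERPUD1 rose by 1.62 and 1.95, and XBP1 by 1.21 and 1.59, and both 24 h calls were lost without untreated replicate 2 or treated replicate 1 or 3 at 24 h, that of XBP1 also without treated replicate 2 (limma adjusted p up to 0.11 and 0.109). The list's median difference was 0.20, which was 0.38 above that of all genes, and it stayed above 0 under all 4 other scalings. Thus HSPA5, the member with a called difference, stood beside HERPUD1 (0.34, interval -0.65 to 1.33) and XBP1 (0.38, interval -0.43 to 1.19), whose differences were not called.

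**Figure D2:**
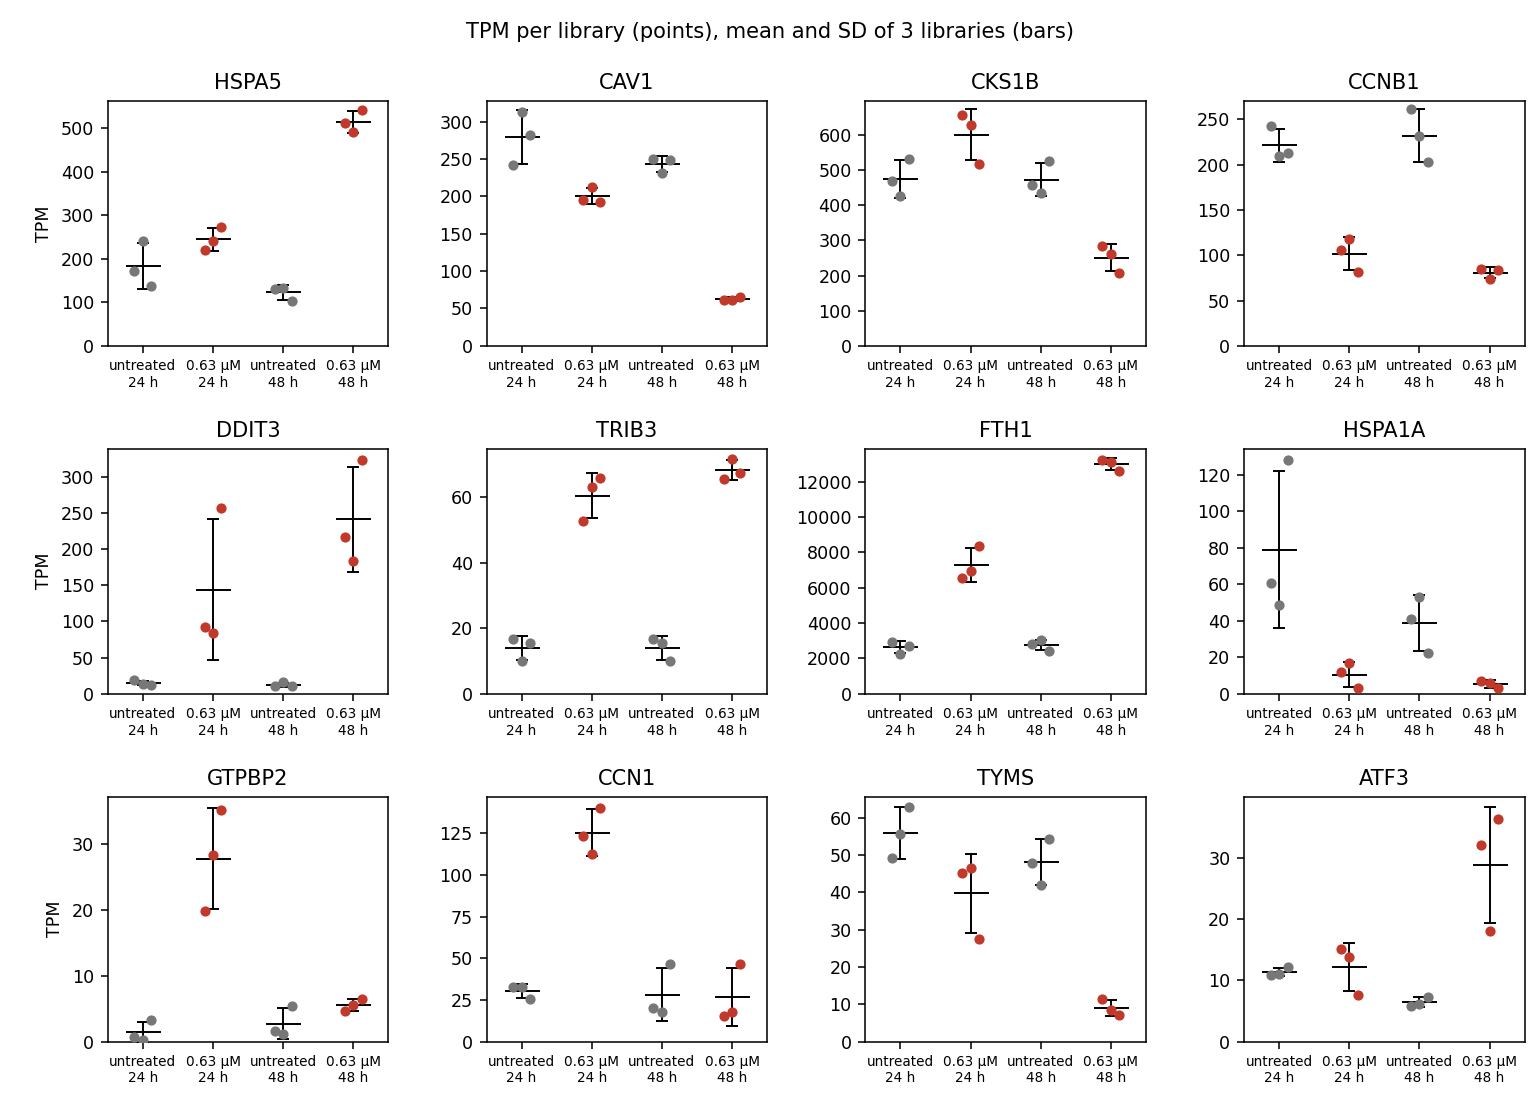
TPM of 12 genes in each of the 12 libraries (points, grey untreated and red 0.63 µM), with the mean and SD of the 3 libraries of each group. HSPA5 at 48 h with the compound, at 491 to 541 TPM, stands above all other libraries, TRIB3 is level between the times, GTPBP2 and CCN1 are highest at 24 h with the compound, and TYMS is lowest at 48 h with the compound.

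FTH1, the ferritin heavy chain, which stores iron, rose at both times with little spread. It had 2949.7, 2263 and 2717 TPM untreated and 6550.4, 6926 and 8384 TPM treated at 24 h, then 2792, 3031 and 2431 TPM untreated and 13239, 13089 and 12599 TPM treated at 48 h. The 4 groups fell into 3 levels that did not overlap, with both untreated groups lowest and the treated group at 48 h highest. The effect was 1.46 at 24 h (limma adjusted p = 3e-05) and 2.24 at 48 h (adjusted p = 1.54e-07). In treated cells FTH1 rose by 0.84 between the times (adjusted p = 0.00189), while the corrected difference of 0.78 with an interval of 0.38 to 1.176 was not called (adjusted p = 0.119). FTL, the light chain, rose by 0.96 and 1.23, and its 24 h call was lost without treated replicate 3 at 24 h (adjusted p = 0.097). SQSTM1, the autophagy receptor p62 and a target of NRF2, rose by 0.73 and 1.52, and its 24 h call was lost without any 1 of 4 libraries, untreated replicate 2 and the 3 treated ones at 24 h (adjusted p up to 0.0745). HMOX1, haem oxygenase, rose at 48 h by 1.99, and this was lost without any 1 of 4 libraries of 48 h, untreated replicates 2 and 3 and treated replicates 1 and 2 (limma adjusted p up to 0.108). Ferritin genes have many processed copies, so reads can be shared among them.

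Calls on cytosolic chaperones went the other way. Of 20 measured genes of the heat shock response, 7 fell at 24 h and 12 at 48 h, against 0.824% and 5.68% of all genes, 6 fell at both, and none rose. The list's median was -0.71 at 24 h and -0.96 at 48 h, and its difference of -0.21 was within 0.03 of that of all genes. HSPA1A, the inducible HSP70, had 60.6, 48.4 and 128 TPM untreated and 11.9, 16.7 and 2.90 TPM treated at 24 h, and 41.1, 53.1 and 22.3 TPM untreated and 7.21, 6.13 and 2.92 TPM treated at 48 h. No treated library reached the lowest untreated one at either time. The effects of HSPA1A were -2.93 and -2.62, with a difference of 0.31 and an interval of -1.26 to 1.88, and its 24 h call was lost without treated replicate 3 at 24 h (limma adjusted p = 0.0614). HSPA1B is nearly identical to HSPA1A, so how reads were split between them is uncertain. HSP90AA1, the inducible cytosolic HSP90, fell by 1.24 and 1.77. HSPA8, the constitutive HSP70, had effects of -1.182 and -1.296. Their 24 h calls were lost without untreated replicate 2 or any of the 3 treated libraries at 24 h (adjusted p up to 0.159 and 0.149). HSPA5, an HSP70 of another compartment, thus rose at 48 h while HSPA1A and HSPA8 were lower at both times.

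Genes of the cell cycle were called lower mainly at 48 h. Of 40 measured G2/M and mitosis genes, 6 fell at 24 h and 33 at 48 h, where 0.824% and 5.68% of all genes were called lower. Of 40 DNA replication and E2F targets, 2 fell at 24 h and 27 at 48 h, and of 23 genes of homologous recombination and DNA repair, 2 and 10 fell. No gene of these 3 lists rose at either time. The G2/M list had a median effect of -0.63 at 24 h and -1.36 at 48 h, and all 40 had a difference of effects below 0, with a median of -0.84. The replication list had medians of -0.47 and -1.33 and a median difference of -1.01, below 0 in 37 of 40, which was 0.84 below that of all genes and between -0.81 and -0.97 under the 4 other scalings. CKS1B belonged to none of these 3 lists.

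TYMS, thymidylate synthase, which makes a precursor of DNA, had 49.0, 55.7 and 62.8 TPM untreated and 45.1, 46.5 and 27.6 TPM treated at 24 h. At 48 h it had 47.8, 41.9 and 54.3 TPM untreated and 11.4, 8.57 and 7.13 TPM treated. Treated libraries were lower at both times, and by a wide gap at 48 h. The effect of TYMS was -0.51 at 24 h and -2.30 at 48 h (limma adjusted p = 3.57e-05), and the difference of -1.79 with an interval of -2.54 to -1.05 was just outside the threshold (adjusted p = 0.0793). RRM2, the small subunit of ribonucleotide reductase, and TK1, thymidine kinase, serve the same nucleotide supply. RRM2 had effects of -0.70 and -2.47 and a difference of -1.77 (limma adjusted p = 0.177), and TK1 effects of -0.72 and -2.73 and a difference of -2.01 (adjusted p = 0.109). For both the 48 h effect was called and the 24 h effect was not. UNG, which removes uracil from DNA, had effects of -0.40 and -2.26.

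Among mitotic genes, CCNB1, cyclin B1, was sustained and fell by 1.13 at 24 h (limma adjusted p = 0.0057) and by 1.502 at 48 h (adjusted p = 0.000109). Its treated libraries had 105, 118 and 81.7 TPM at 24 h and 84.6, 74.2 and 84.0 TPM at 48 h, against 203 to 261 TPM in the 6 untreated ones, so CCNB1 was low already at the first time. Its difference was -0.37 with an interval of -0.92 to 0.17. CDKN2C, the CDK4 and CDK6 inhibitor p18, was also sustained, with a fall of 1.53 at 24 h and 2.90 at 48 h. It had 14.1, 16.2 and 21.2 TPM untreated and 5.48, 4.66 and 5.51 TPM treated at 24 h, and 14.2, 13 and 15.3 TPM untreated and 0.81, 0.76 and 1.61 TPM treated at 48 h. The difference of -1.37 with an interval of -2.04 to -0.70 was not called (adjusted p = 0.112). CDK1, the mitotic kinase, had an effect of -1.03 at 24 h that was not called (adjusted p = 0.0826) and fell by 1.55 at 48 h. MKI67, the proliferation marker, fell by 1.84, KIF11, a spindle kinesin, by 1.86 and CKS2 by 1.96 at 48 h, with 24 h effects of -0.73, -0.73 and -0.78 that were not called. CDKN1A (p21), which p53 raises, had effects of 0.49 and 1.15, and CCND1, cyclin D1, 0.21 and 0.14, none of them called.

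The genes called at 24 h and not at 48 h include some whose effect was near 0 at the later time, such as RPL23A. Others, such as GTPBP2, had a smaller effect that was still above 0. The difference was called for none of them with a gene name. GTPBP2, a GTPase that helps rescue stalled ribosomes and an ATF4 target, had 0.77, 0.29 and 3.21 TPM untreated and 19.8, 28.4 and 35.1 TPM treated at 24 h. Later it had 1.65, 1.19 and 5.40 TPM untreated and 4.70, 5.60 and 6.40 TPM treated. The treated libraries stood far above the untreated ones at 24 h, and at 48 h the highest untreated library lay among them. Its effect was 3.72 at 24 h (limma adjusted p = 0.000407) and 0.97 at 48 h (adjusted p = 0.219). The difference of -2.75 with an interval of -4.08 to -1.43 was not called (adjusted p = 0.109). In treated cells alone the level of GTPBP2 fell by 2.10 between the times (adjusted p = 0.01). That test shares the treated libraries of 24 h with the 24 h call. RPL23A, a protein of the large ribosomal subunit, had an effect of 0.92 at 24 h and 0.06 at 48 h, with 1395, 1590.2 and 1546 TPM untreated and 2355, 2810.4 and 3493 TPM treated at 24 h, and 1547 to 1842 TPM in all 6 libraries of 48 h. Its difference was -0.86 with an interval of -1.27 to -0.45 (limma adjusted p = 0.0988). The 24 h calls of GTPBP2 and RPL23A held with each single library left out.

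CCN1, a matrix protein and a target of YAP, had 32.5, 32.9 and 25.6 TPM untreated and 123, 112 and 141 TPM treated at 24 h. At 48 h the untreated libraries had 19.95, 17.8 and 46.3 TPM and the treated ones 15.5, 18.1 and 46.6 TPM, so the wide gap at 24 h had no counterpart at 48 h. The effect was 2.02 and then -0.11, and the difference of -2.12 with an interval of -3.35 to -0.89 was not called (limma adjusted p = 0.15). The 24 h call of CCN1 was lost without treated replicate 1 or 3 at 24 h (adjusted p = 0.0571 and 0.107). MYC, the growth-promoting transcription factor, rose by 1.61 at 24 h and had an effect of 0.49 at 48 h, and LIF, an IL-6 family cytokine, rose by 2.28 and then had 0.72. IARS1, the isoleucine tRNA synthetase, rose by 1.01 and then had an effect of 0.00, SDHD, a membrane subunit of respiratory complex II, rose by 1.56 and then had 0.00, and MT2A, a metallothionein, rose by 0.83 and then had 0.17. The CDK inhibitor CDKN1C fell by 1.61 at 24 h and had an effect of -0.02 at 48 h. In treated cells the levels of MYC, LIF, IARS1, SDHD and MT2A all fell between the times (limma adjusted p between 0.00715 and 0.0396), a test that shares the treated libraries of 24 h with the call that chose them. Of these 6 genes, all but MYC lost the 24 h call without treated replicate 3 at 24 h (limma adjusted p between 0.0863 and 0.11). MYC lost it without untreated or treated replicate 2 of 24 h (adjusted p = 0.0602 and 0.0599). Untreated replicate 2 of 24 h also ended the call for LIF, SDHD, MT2A and IARS1, untreated replicate 1 for CDKN1C and IARS1, and treated replicate 2 for IARS1.

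COTL1, an actin-binding protein, was the only gene called in opposite directions, with a rise of 0.90 at 24 h (limma adjusted p = 0.0389) and a fall of 0.71 at 48 h (adjusted p = 0.049). It had 161, 104 and 216 TPM untreated and 279.8, 307 and 273 TPM treated at 24 h, and 145, 173 and 145 TPM untreated against 89.7, 97.2 and 94.4 TPM treated at 48 h. The groups did not overlap at either time, where 19.3% of all genes at 24 h and 30.5% at 48 h had groups that did not overlap. The difference of -1.60 missed the threshold (limma adjusted p = 0.0756), and both calls hung on single libraries. The 24 h call of COTL1 was lost without any 1 of 8 libraries (limma adjusted p up to 0.12), namely untreated replicates 1 and 2 and all treated ones at 24 h, and untreated replicate 1 and treated replicates 1 and 2 at 48 h. The 48 h call was lost without any 1 of 10 (up to 0.179), all but untreated replicates 2 and 3 at 24 h, and under all 4 other scalings. Under median-of-ratios, quantile and median-centred scaling 1 gene was called in opposite directions, and it was not COTL1.

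The genes nearest to the threshold of the difference were given by the naming rule. On the higher side they were the small nuclear RNA pseudogene RNU6-1016P, the ciliary GTPase ARL6, the glycosyltransferase GALNT12 and MTND2P28, a nuclear copy of a mitochondrial gene, with limma adjusted p of 0.0756 to 0.0793. GALNT12 was at 0.34 TPM or less in 9 libraries and at 5.35, 7.51 and 8.12 TPM with the compound at 48 h. ARL6 and MTND2P28 had effects of opposite sign at the 2 times, -1.87 then 1.35 and -1.46 then 1.67, and in both the untreated level at 48 h was under that at 24 h. RNU6-1016P was at 71.6, 36.2 and 137 TPM in untreated libraries at 24 h and, of the 9 others, above 0 in 1 alone, and TPM of such short RNAs is inflated by their length. On the lower side they were POLR2L, a shared subunit of the RNA polymerases, with effects of -0.13 and -1.52, and the carboxypeptidase CPA4, with -0.41 and -2.79 (both limma adjusted p = 0.0756). CPA4 was at 6.20 to 16.1 TPM in the 9 other libraries and at 0.79, 0.93 and 1.26 TPM with the compound at 48 h.

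Calls on matrix and YAP genes went in both directions at 48 h. Of 25 measured genes of TGF-β signalling and matrix, 1 rose at 24 h (1.36% of all genes), and 2 rose and 7 fell at 48 h (1.95% and 5.68% of all genes). THBS1, the matrix protein thrombospondin 1, had 53.7, 45.0 and 38.8 TPM untreated and 12.4, 8.11 and 12.2 TPM treated at 48 h, while its 24 h groups overlapped. The effect was -0.20 at 24 h and -1.98 at 48 h, and the difference of -1.79 had a limma adjusted p of 0.0793. MMP2, a gelatinase, had effects of 0.30 and -2.01, and WWTR1, the YAP partner TAZ, -0.03 and -1.06. Of 22 measured YAP and TEAD targets 2 rose at 24 h, and 1 rose and 2 fell at 48 h, where 1.95% of all genes were called higher and 5.68% lower, so the count at 48 h is near that of all genes. That list's median effect was 0.31 at 24 h and -0.30 at 48 h, and its median difference of -0.73 was 0.56 below that of all genes and below 0 under all 4 other scalings.

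MITF, the master regulator of pigment cells, had 16.6, 13.5 and 16.8 TPM untreated and 10.5, 8.72 and 9.20 TPM treated at 24 h, and 16.5, 16.1 and 15 TPM untreated and 4.93, 4.41 and 2.87 TPM treated at 48 h. Its effect was -0.67 at 24 h, not called, and -1.76 at 48 h (limma adjusted p = 0.00171), with a difference of -1.09 that was not called (adjusted p = 0.313). SOX10, which activates MITF, had effects of 0.25 and -0.28, neither called. DUSP6, a feedback phosphatase of ERK, had effects of 0.21 and -0.39, neither called, while DUSP5, a nuclear one, rose by 1.77 and 2.03, and lost its 24 h call without treated replicate 3 at 24 h (adjusted p = 0.0664).

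The glycolysis and complex I lists had median differences below that of all genes. Of 22 measured glycolysis genes none was called at 24 h, and 1 rose and 4 fell at 48 h, where 5.68% of all genes were called lower. Their median difference of -0.70 was 0.53 below that of all genes, and it was below 0 for 21 of 22. The mean log2(TPM + 1) of the list ran from 4.98 to 5.92 in untreated libraries at 24 h, wider than in any other group compared. PGAM1, a glycolytic mutase, fell at 48 h by 1.20 after an effect of -0.20. Of 38 nuclear genes of respiratory complex I, none was called at 24 h and 7 fell at 48 h, with a median difference of -0.53, below 0 in 35. The mean of this list ran from 6.29 to 6.97 in untreated libraries at 24 h, again the widest range. An untreated 24 h library that is low over a whole list lowers the difference of all its members together. The part of this in both lists was not tested. NDUFAB1, the mitochondrial acyl carrier protein, had 311, 299.9 and 241 TPM treated at 48 h against 475 to 532 TPM untreated, and effects of -0.13 and -0.86. Of 24 sterol synthesis genes 4 fell and of 14 fatty acid genes 5 fell at 48 h, and none at 24 h. SCD, which makes monounsaturated fatty acids, had effects of -0.06 and -1.29, whereas HMGCS1 had -0.36 and -0.72, neither called. SCD illustrates the correction, since in untreated cells its level was higher at 48 h by 0.93, which was not called, and the corrected difference contains that change.

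Some genes rose at 48 h and were not called at 24 h. VEGFA, an angiogenic factor that both hypoxia and ATF4 raise, had effects of 0.65 and 1.93, and NDRG1, another hypoxia gene, of 1.37 (limma adjusted p = 0.0564) and 2.29. Of 22 small nucleolar RNA host genes, which have snoRNAs in their introns, 3 rose at 24 h (1.36% of all genes), and 7 rose and 1 fell at 48 h (1.95% and 5.68% of all genes). Their median difference of 0.40 was 0.57 above that of all genes and above 0 under all 4 other scalings. SNHG32 had 159, 182 and 259.9 TPM treated at 24 h and 338, 349 and 471 TPM treated at 48 h, against 75.0 to 137 TPM untreated. Its effects were 0.84 (adjusted p = 0.0826) and 2.02. GAS5, a host gene known to accumulate when translation is slowed, rose by 0.85 and 1.69 and by 1.08 in treated cells between the times (adjusted p = 0.00288). Its 24 h call was lost without any 1 of 4 libraries, untreated replicates 1 and 2 and treated replicates 1 and 3 at 24 h (adjusted p up to 0.143).

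NF-κB is the pathway of the compound's known target. Of 22 measured NF-κB subunits, kinases and inhibitors, none was called at 24 h and 1 at 48 h, numbers that are near the shares over all genes, 2.18% and 7.63%. The latter was NFKB2, which rose by 0.95 (limma adjusted p = 0.0425), a call that was lost without any 1 of 7 libraries, replicate 1 of both 24 h groups, untreated replicates 1 and 3 and all treated ones at 48 h (adjusted p up to 0.151). NFKBIA, which encodes IκBα and is itself an NF-κB target, had 23.8, 30.9 and 18.3 TPM untreated and 18.03, 17.5 and 19.6 TPM treated at 24 h, and 28.3, 15.9 and 19.1 TPM untreated and 12.5, 13.5 and 27.3 TPM treated at 48 h. The groups overlapped at both times, the effects were -0.36 and -0.28, and the difference of 0.07 had an interval of -0.75 to 0.90. RELA, the main activating subunit, had effects of 0.20 and -0.12 and a difference within -0.93 to 0.29, and IKBKB, the gene of IKKβ, effects of 0.45 and 0.19 and a difference within -1.69 to 1.17. CXCL8, an NF-κB target chemokine, was at 1.74 to 5.26 TPM in all 12 libraries, with effects of 0.42 and 0.12. Of 19 measured NF-κB target cytokines and adhesion genes, 3 rose at 24 h and 4 at 48 h (1.36% and 1.95% of all genes), IL24 among both, and none fell. A p that misses the threshold does not show that these levels were alike.

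**Figure D3:**
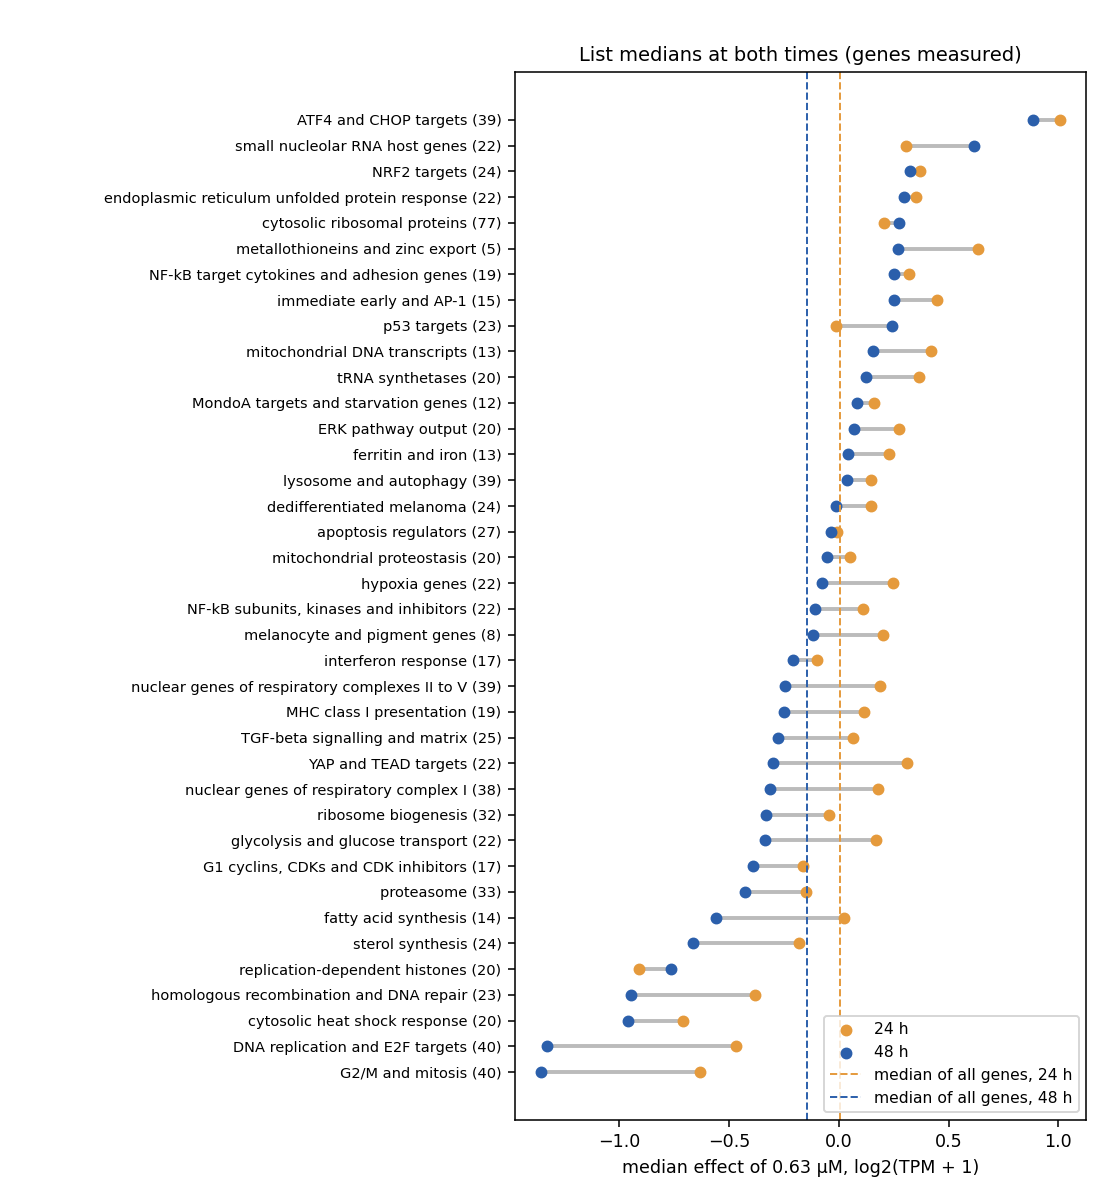
Median effect of 0.63 µM on each of the gene lists with 5 or more genes measured, cell type markers left out, at 24 h (orange) and 48 h (blue) as log2(TPM + 1), with the number of genes measured in brackets and dashed lines at the median of all genes. Of the lists drawn, that of ATF4 and CHOP targets is the highest at both times, at 1.01 and 0.88, and the G2/M and replication lists move furthest down, to -1.36 and -1.33 at 48 h.

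The change over time can also be read within each arm. In treated cells 89 genes rose (0.596%) and 839 fell (5.62%) from 24 h to 48 h, and 6.21% of genes were called. In untreated cells limma called none higher and 2 lower, ENSG00000252236 and ENSG00000248155, which is 0.0134% of genes, with 1181 at an unadjusted p under 0.05. Of the 839 that fell in treated cells, 637 also had a change below 0 in untreated cells, with a median of -0.19 against -1.03 in treated cells. Of the 839, 382 were called lower than untreated cells at 48 h. Called higher than untreated cells at 24 h were 38 of the 839, which can overlap with the 382. For these 38 the fall in treated cells began above the untreated level. Both tests share the treated libraries of 24 h. The number that fell depended on the scaling, being 839 as deposited and 280, 304 and 369 by median of ratios, by quantiles and without the chromosome 21 transcripts, whose share of TPM was higher at 48 h. 

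**Figure D4:**
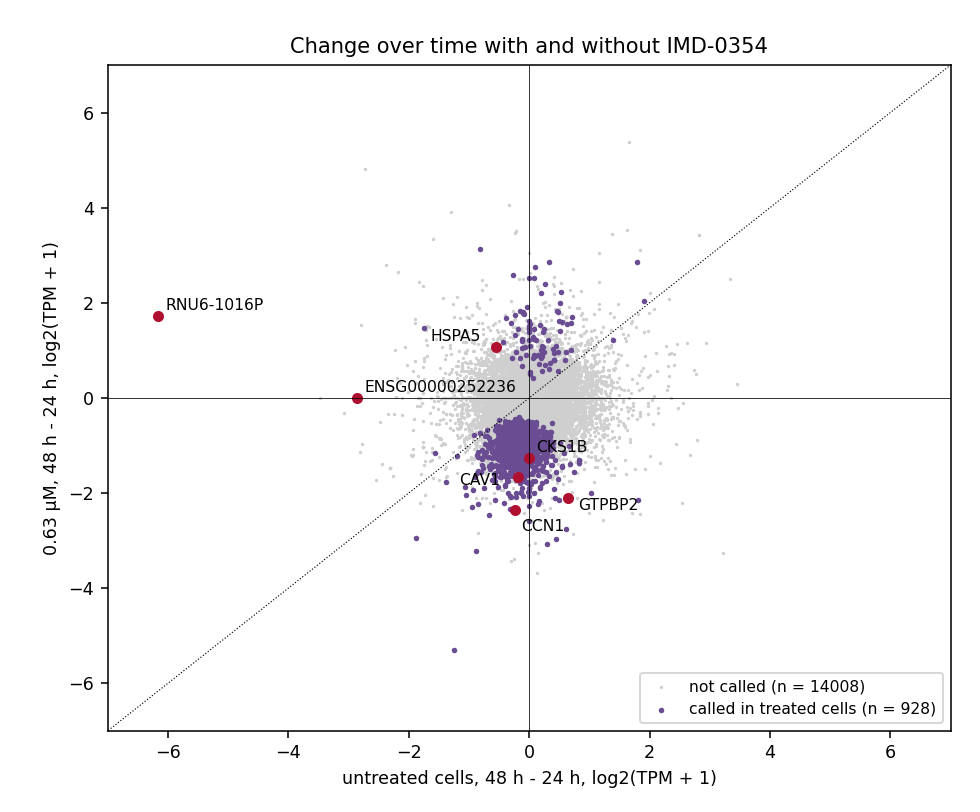
Change from 24 h to 48 h in untreated cells (horizontal) and with 0.63 µM (vertical) as log2(TPM + 1), 1 point per gene, with the 928 genes called in treated cells in purple, named genes in red and a dotted line where both changes are equal. HSPA5, CAV1 and CKS1B lie away from the line mainly through the treated cells, while ENSG00000252236 and RNU6-1016P lie away through the untreated ones.

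Single libraries carried much of the count at 24 h. The 326 calls of 24 h became 49 without treated replicate 3, 139 without untreated replicate 2 and 490 without untreated replicate 3, and 13 without both of these untreated libraries. The 1140 calls of 48 h became 557 without treated replicate 3, 601 without untreated replicate 2 and 614 without untreated replicate 1. The difference of effects was called for 1 gene without untreated replicate 1 of 24 h, for 9 and 17 without replicates 2 and 3, and for 13 without treated replicate 3 of 24 h. With each of the 12 libraries left out in turn, 16 of 56 calls on named genes at 24 h and 73 of 98 at 48 h were never lost. A gene that missed the minimum level in such a fit was not tested there and counts as not lost. This was so for ENSG00000252236 with an untreated library of 24 h left out. The mean correlation of a library with its own group was between 0.907 and 0.941 at 24 h and between 0.942 and 0.953 at 48 h, and the part of this spread in the smaller number called at 24 h was not tested.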

How the data were processed

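Gene expression was measured in A375 cells with QuantSeq 3' end libraries (FWD, Lexogen), per the labels' protocols. Per the submitters' processing notes, the tools were cutadapt 1.18, STAR 2.7, RSEM 1.3.1 and DESeq2, without a statement of what each did. Build and annotation: not given in the sources used here. Values deposited by the authors are TPM for 60504 Ensembl identifiers, and their sum per library lies between 999999.1 and 1000000.5. TPM holds no counts, so depth is unknown and no count test was made, and it is divided by transcript length although 3' end libraries give about 1 tag per transcript.

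Symbols were found for 41209 identifiers, coordinates come from GENCODE release 29 (GRCh38) and promoters from RefSeq (GRCh38.p14), with 10093 of the tested genes in the promoter table. Genes were kept where 3 or more of the 18 libraries had 1 TPM or more (14936, of which 13367 had a symbol), and log2(TPM + 1) was fitted with limma 3.58.1 and statmod 1.5.0 in R 4.3.3. All 18 libraries entered with 1 mean for each of the 6 groups (12 residual degrees of freedom, 4.16 prior degrees of freedom), since the other 2 doses at 24 h help to estimate the spread. Moderation used a mean-variance trend, tests were two-sided and p-values were adjusted over all genes. The fit was checked on simulated data. Fold changes on this scale understate those of low genes. All value columns were mapped to libraries.

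Of the alternatives, 4 were added after seeing the data, as were the motifs of the stress element and of E2F sites. The members and the 43 lists, 1045 entries of which 943 were measured, were chosen with earlier results of these data known, so list counts are not independent evidence, and no set test was made. Named genes are the 5 with the smallest p of the difference in each direction, up to 6 of each class in each direction by size, up to 3 of each list, and a fixed set, with a minimum mean of 5 TPM for the first 2 kinds. Genes of that naming rule without an account in the text are left out for length, and some results, 1 of the 5 called differences among them, are not reported here. ENSG00000252236 and COTL1 fall outside the rule and were named after their values were seen. Same-numbered libraries of different groups correlated in their deviations by -0.027 to 0.12, above 0.1 in 1 of 18 pairs, and the main fit did not pair them. Between replicate 3 libraries these correlations were 0.048 to 0.12. Replicate 3 also had the lowest mitochondrial share of TPM in its group, at 3.23% and 3.61% untreated and treated at 24 h, and 3.94% and 4.05% at 48 h. What the number stands for is not in the labels, and an effect shared under it was not removed from the main fit.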

Additional observations from a re-analysis of the deposited data

Results flagged for a closer look

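For 5 genes the effect of 0.63 µM differed between 48 h and 24 h by limma's test of the difference itself. The effect at 48 h minus the effect at 24 h was -1.48 for CAV1, 1.62 for HSPA5 and -1.25 for CKS1B, with the 48 h treated libraries outside the range of the 9 others in each. It was 2.86 for ENSG00000252236, where the 3 untreated libraries of 24 h are the only ones above 0. None of the 5 was called when the fit held only the 4 groups of this comparison. Of them, CAV1 alone kept the call with each single library left out. ENSG00000252236 kept it where it was tested. With an untreated library of 24 h left out, it missed the minimum level and was not tested.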

How the results depend on the processing

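No call on a named gene reversed under the alternatives run, while list medians close to 0 changed sign under other scalings, the median difference of the ATF4 and CHOP list under 3 of 4 among them, and the share of 24 h calls that were higher went from 62.3% to 44.0% without the chromosome 21 transcripts. As reported, limma called 5 differences of effects, 326 effects at 24 h, 1140 at 48 h, 928 treated and 2 untreated changes over time, with 1 early transient, 4 late, 135 sustained, 189 24 h only, 1000 48 h only and 1 opposite gene. Counts that moved by over 1.5 times were as follows, and the cause was not tested.

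A pseudocount of 0.1 TPM gave 1 untreated change, 0 early transient and 3 opposite genes, and one of 5 TPM gave 0 opposite genes. No filter on low values gave 8 differences, 175 effects at 24 h, 6 untreated changes, 3 early transient, 77 sustained, 95 24 h only and 0 opposite genes. A minimum of 5 TPM gave 0 untreated changes, 0 early transient and 2 opposite genes, and it left some lists empty. Median-of-ratios, quantile and median-centred scaling and rescaling without the chromosome 21 transcripts each gave 3 differences, with 470, 501, 487 and 485 treated changes and 2, 2, 2 and 1 late genes, and the last also 0 opposite genes. Without the mean-variance trend there were 2 differences, 200 effects at 24 h, 2 early transient, 0 late, 81 sustained, 117 24 h only and 0 opposite genes. With only the 4 groups in the fit there were 0 differences, 155 effects at 24 h, 1 untreated change, 0 early transient, 0 late, 81 sustained and 73 24 h only genes. Library weights gave 151 differences, 2312 effects at 48 h, 1524 treated and 4 untreated changes, 22 early transient, 112 late, 2029 48 h only and 4 opposite genes. Without untreated replicates 2 and 3 at 24 h there were 3 differences, 13 effects at 24 h, 0 untreated changes, 0 early transient, 11 sustained, 2 24 h only and 0 opposite genes, with the lone library taken to vary like the other groups. Without untreated replicate 2 and treated replicate 3 at 24 h there were 24 differences, 34 effects at 24 h, 0 untreated changes, 0 early transient, 22 late, 24 sustained, 10 24 h only, 1625 48 h only and 0 opposite genes. The last 2 settings, median centring and the rescaling were added after seeing the data.

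With 1 of the 12 libraries left out in turn, the counts ranged from 1 to 17 differences, 49 to 490 effects at 24 h, 557 to 1543 at 48 h, 388 to 1360 treated and 0 to 3 untreated changes, 0 to 2 early transient, 1 to 13 late, 33 to 157 sustained, 15 to 329 24 h only, 450 to 1453 48 h only and 0 to 3 opposite genes.

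A replicate block, which takes out a shift shared by libraries of the same number, gave 4 differences, 420 effects at 24 h, 1272 at 48 h, 184 sustained and 2 opposite genes. It ended the calls of the CKS1B difference, of ARRDC3, COTL1 and NFKB2 at 48 h and of EGR1 and HSPA1B at 24 h, and of no other named gene, and 9 of the 12 libraries had their closest partner in another group under their own number. A robust prior gave 5, 324 and 1145. Of the named calls, 71 of 98 at 48 h, 5 of 56 at 24 h and 0 of 5 differences were lost under no alternative run. A gene that missed the minimum level under an alternative was not tested there and counts as not lost. The 24 h call of ENSG00000252236 is such a case. Depth is unknown, so the part that counting error has in these spreads could not be separated.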
